A study of Mus musculus with 18 samples.

Results

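The genes described here encode conjugating and hydrolysing enzymes of foreign and internal compounds: UDP-glucuronosyltransferases (Ugt), sulfotransferases (Sult), arylamine N-acetyltransferases (Nat), carboxylesterases (Ces) with the related deacetylase Aadac, epoxide hydrolases (Ephx) and flavin-containing monooxygenases (Fmo). They were chosen by gene symbol alone, as every spot of the arrays whose annotated symbol starts with Ugt1, Ugt2 or Ugt3, Sult, Fmo, Ces, Ephx or Aadac, or is Nat1 or Nat2. This gave 35 spots of 21765 and 33 genes of 15095 named genes. Of the 33 genes, 12 were sulfotransferases, 6 were glucuronosyltransferases, 6 were carboxylesterases, 3 were epoxide hydrolases, 3 were flavin-containing monooxygenases, 2 were N-acetyltransferases and 1 was Aadac. Fmo2 and Fmo5 had 2 spots each and the others 1. No filter on low signal was applied, so all 33 genes had a value in each tissue.

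The study compared RNA of DBA/2J and C57BL/6J mice, both inbred strains, in whole brain, kidney and liver on 18 arrays that carry 2 dyes, 6 arrays per tissue. Every array of a tissue took its RNA from 1 pool per strain; brain pools held 10 mice, kidney pools 10 and liver pools 9. The labels used here name no treatment and give neither age nor sex. DBA/2J RNA carried Alexa Fluor 647 and C57BL/6J RNA Alexa Fluor 555 on each array, with no dye swap.

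Several limits hold for each value below. The p-values rest on the spread among repeat hybridisations of 1 pair of pools, not among mice. Without a dye swap, a dye effect of a spot cannot be told apart from a strain effect. The direction of the ratio, DBA/2J over C57BL/6J, is the likely one, from the order of dyes in the labels. Names are those of the spots' annotation, and among 902 genes with 2 spots the mean ratio of 1 spot hardly followed that of the other (Pearson's r over genes, which are not independent replicates, was 0.0553 for brain, 0.109 for kidney and 0.0230 for liver). Close copies such as the Ugt2b and Ces genes may share signal, as probe sequences were not used here.

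As background, these enzymes make fat-soluble compounds easier to excrete. Carboxylesterases, epoxide hydrolases and flavin-containing monooxygenases cut or oxidise a compound and so expose reactive groups. The transferases then attach glucuronic acid, sulfate or an acetyl group to it, and transporters carry the product into bile or urine. Liver holds most of this capacity and kidney much of the rest. The same enzymes handle bilirubin, steroids, thyroid hormone, catecholamines and bile acids.

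The recovered spot intensities followed this division. The spot of a gene was brightest, relative to the median spot of the tissue, in liver for 25 of the 33 genes, in kidney for 4 (Fmo2, Sult1d1, Sult2b1 and Ugt2a1) and in brain for 4 (Ephx3, Sult1c2, Sult4a1 and Sult6b1). Sult4a1 is known as the sulfotransferase of neurons, but its spot was nearly as bright in liver (0.82 log2 units above the median spot) as in brain (1.01). Ephx3 was almost equal in brain (0.74) and kidney (0.73). Ces1g, a liver carboxylesterase of lipid metabolism, lay 5.78 log2 units above the median spot in liver, 0.52 below it in kidney (-0.52) and 0.77 below it in brain (-0.77). Tissue markers behaved likewise: 9 of 9 hepatocyte markers were brightest in liver, 6 of 9 kidney tubule markers in kidney and 8 of 9 markers of neurons and glia in brain.

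Strain ratios past the threshold, an adjusted p under 0.05 (limma, Benjamini-Hochberg over 20218 features), were found for 4 of the 33 genes in brain, 16 in kidney and 18 in liver. This is 12.1% in brain, 48.5% in kidney and 54.5% in liver, against 13.8%, 42.1% and 22.7% of all features. The shares in brain and kidney were thus near those of the arrays as a whole, and the share in liver was above it. In brain 1 gene was higher and 3 were lower in DBA/2J, where 7.45% of all features were higher and 6.32% lower. Kidney had 8 higher and 8 lower, against 21.0% of all features higher and 21.0% lower. In liver 5 were higher and 13 lower, against 10.7% and 12.0%. A ratio of at least 1.5-fold was reached by 0 genes in brain (7 of 33 had an unadjusted p under 0.05 at any size), 4 in kidney (12.1%) and 3 in liver (9.09%), against 1.67%, 5.08% and 2.39% of all features. Over the 33 genes the log2 ratio had a median size of 0.0988 (brain), 0.207 (kidney) and 0.226 (liver), against 0.116, 0.166 and 0.126 over all features.

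Leaving out 1 array, which also leaves fewer arrays for the test, moved these counts in both directions. The brain count of 4 was 2 without brain array 4, 2 without brain array 6 and 5 without brain array 1. The kidney count of 16 was 20 without kidney array 3, and the liver count of 18 was 10 without liver array 3. Without loess, which removes the dependence of the ratio on spot intensity, 27 genes passed in kidney, 16 of them higher, against 8 of 16 with it, and in liver 6 of 14 were higher, against 5 of 18 with it. In brain that setting gave 7 genes, 1 of them higher. For these settings the shares of all features were not counted. A change over the whole array thus cannot be told apart from one of these genes. In 25 genes the ratio passed in at least 1 tissue, and in Ces5a it passed in each of the 3. The share of all features that passed in at least 1 tissue was not counted. The 8 genes that passed in no tissue were Aadac, Ces1h, Ces2g, Ephx3, Sult1c1, Sult1e1, Sult4a1 and Sult5a1.

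**Figure D1:**
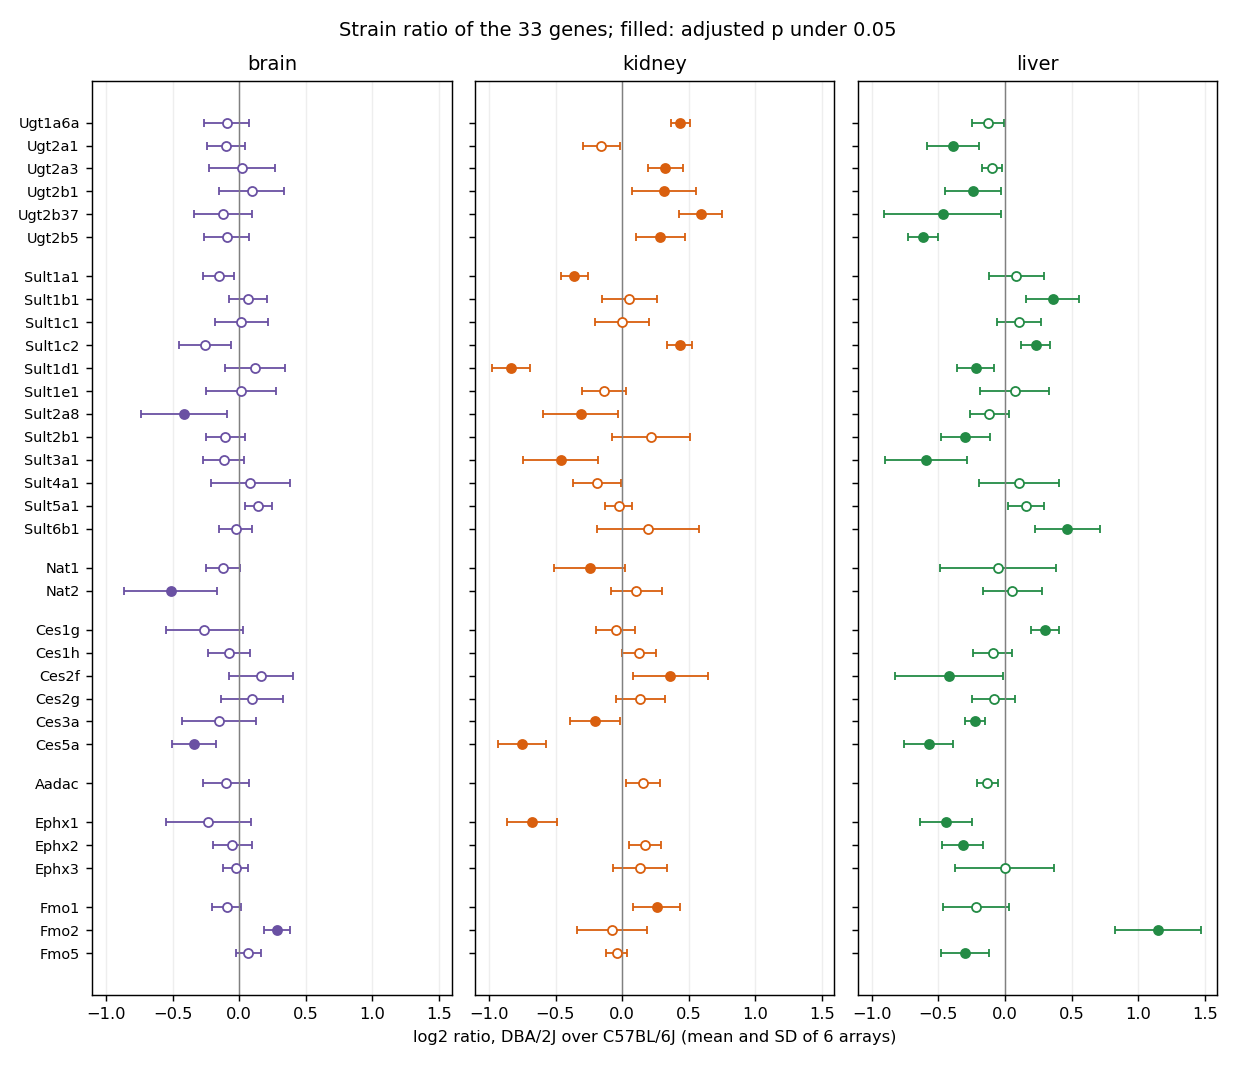
Mean log2 ratio of DBA/2J over C57BL/6J for each of the 33 genes (points) with the SD over 6 arrays (bars), by enzyme family, in brain, kidney and liver; filled points have an adjusted p under 0.05. The widest spread of means is in liver, from -0.62 (Ugt2b5) to 1.15 (Fmo2). In kidney 5 of 6 Ugt genes lie to the right of 0. In liver all 6 lie to the left, 4 of them past the threshold, where 12.0% of all features were lower.

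Most glucuronosyltransferases were higher in DBA/2J kidney and lower in DBA/2J liver, and 3 genes passed the threshold in both directions (Ugt2b1, Ugt2b37 and Ugt2b5). Of the 6 genes, 5 were higher in DBA/2J kidney and 0 were lower, with a median log2 ratio of 0.32. In DBA/2J liver 0 were higher and 4 were lower, with a median of -0.31. Across all features, 21.0% were higher and 21.0% lower in kidney, 10.7% were higher and 12.0% lower in liver, and 13.8% passed in brain. In brain 0 of 6 passed, and 0 had an unadjusted p under 0.05 (limma), with means between -0.12 and 0.09. The kidney median kept its sign without loess (0.90), with a single loess curve per array (0.45) and with unrestored intensities (0.39). So did the liver median (-0.26, -0.34 and -0.33). The kidney value without loess is no separate support, as deposited kidney ratios rose with spot intensity (Pearson's r across spots between 0.595 and 0.698). The kidney spots of Ugt2b5, Ugt1a6a, Ugt2b37 and Ugt2a1 were bright (93.6th to 98.9th percentile). Those of Ugt2a3 (46.3th) and Ugt2b1 (2.08th) were not. Under these settings 4 or 5 genes were higher in kidney and 3 or 4 lower in liver, and without loess 1 gene, Ugt2b1, was lower in kidney. With loess Ugt2a1 was below 0 in kidney (-0.16), though not past the threshold. Without loess it was 0.54 there and past the threshold.

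Ugt2b5, which glucuronidates steroids and phenols, was 1.53-fold lower in DBA/2J liver. The 6 liver arrays ran from -0.75 through a median of -0.62 to -0.45, with a mean of -0.62 ± 0.11 (SD, n = 6; adjusted p = 9.75e-05). In kidney the lowest array was -0.01, the median 0.30 and the highest 0.53, with a mean of 0.29 ± 0.19 (adjusted p = 0.00771), which was 1.32 without loess. Brain arrays lay on both sides of 0, from -0.31 to 0.14, with a mean of -0.09 ± 0.17 (adjusted p = 0.454). All liver arrays thus lay below all arrays of brain and kidney, and kidney and brain overlapped.

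Ugt2b37, a second member of that subfamily, was higher in DBA/2J kidney, just past 1.5-fold. Kidney arrays ran from 0.34 through 0.59 to 0.83, with a mean of 0.59 ± 0.16 (adjusted p = 3.95e-05), and all lay above the brain arrays, which ran from -0.40 to 0.16 with a median of -0.13. Without loess the kidney mean was 1.38. The mean in brain was -0.12 ± 0.22 (adjusted p = 0.387). Liver arrays were scattered, from -0.94 through -0.60 to 0.26, with a mean of -0.47 ± 0.44 (adjusted p = 0.0223). Of these, 5 were below 0 and 1 above. The liver call was lost without any 1 of liver arrays 1, 3, 4 and 6, with means between -0.46 and -0.38 and adjusted p between 0.0582 and 0.0797.

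Ugt1a6a, which conjugates small phenols, had the tightest kidney ratio of the family, with arrays between 0.36 and 0.54, a median of 0.44 and a mean of 0.44 ± 0.07 (adjusted p = 0.000115). Its liver arrays ran from -0.30 through -0.13 to 0.06 and its brain arrays from -0.29 through -0.07 to 0.15, and neither mean passed (liver -0.13 ± 0.12, adjusted p = 0.187; brain -0.09 ± 0.17, adjusted p = 0.463). The kidney arrays overlapped with neither. Its kidney mean was 1.26 without loess and 0.69 with unrestored intensities.

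Ugt2a3 was higher in kidney (0.32 ± 0.13, n = 6) and Ugt2a1, known from the olfactory epithelium, was lower in liver (-0.39 ± 0.19). Ugt2b1 was higher in kidney (0.32 ± 0.24) and lower in liver (-0.24 ± 0.21), and both calls were frail. Its kidney ratio was -0.34 without loess, 0.15 with a single loess curve (adjusted p = 0.229) and 0.14 with unrestored intensities (adjusted p = 0.205), and its spot there stood at the 2.08th percentile of intensity. In liver its adjusted p was 0.0499, and without liver array 1, 3, 4 or 6 it was between 0.108 and 0.154, with means between -0.24 and -0.19. It was 0.311 without loess (-0.14) and 0.0755 with a single loess curve (-0.22).

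Of the 6 Ugt genes, 5 belong to 1 cluster on chromosome 5, in the order Ugt2b1, Ugt2b5, Ugt2b37, Ugt2a3 and Ugt2a1 in the RefSeq gene table, and the sulfotransferases Sult1b1, Sult1d1 and Sult1e1 follow. No coding gene lies between Ugt2b5 and Ugt2b37, between Ugt2b37 and Ugt2a3, or between Sult1b1, Sult1d1 and Sult1e1. The 250 bases before the start of 4 genes of this stretch are printed below, because the 3 Ugt genes changed sign between kidney and liver and Sult1d1 differed most between brain and kidney. They are the reference sequence of RefSeq GRCm38.p6, 5′ to 3′ on the minus strand of chromosome 5, at chr5:86926504-86926753 (Ugt2b1), chr5:87140341-87140590 (Ugt2b5), chr5:87254789-87255038 (Ugt2b37) and chr5:87569007-87569256 (Sult1d1). Capitals mark matches on either strand to TTAATNATT, the core of the element that the liver and kidney factor HNF1 binds, or to TTANGTAA, the D-box of the clock-driven factors Dbp, Tef and Hlf.

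Ugt2b1: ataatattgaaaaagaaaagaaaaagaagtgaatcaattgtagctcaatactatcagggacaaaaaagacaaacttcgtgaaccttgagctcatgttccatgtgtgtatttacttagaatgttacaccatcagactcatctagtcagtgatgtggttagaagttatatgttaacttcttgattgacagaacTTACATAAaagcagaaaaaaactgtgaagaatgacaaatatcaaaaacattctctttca

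Ugt2b5: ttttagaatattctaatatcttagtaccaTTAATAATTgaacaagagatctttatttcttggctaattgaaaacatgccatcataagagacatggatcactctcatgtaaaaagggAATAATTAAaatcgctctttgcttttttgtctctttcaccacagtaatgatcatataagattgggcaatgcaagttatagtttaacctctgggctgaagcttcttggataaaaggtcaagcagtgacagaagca

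Ugt2b37: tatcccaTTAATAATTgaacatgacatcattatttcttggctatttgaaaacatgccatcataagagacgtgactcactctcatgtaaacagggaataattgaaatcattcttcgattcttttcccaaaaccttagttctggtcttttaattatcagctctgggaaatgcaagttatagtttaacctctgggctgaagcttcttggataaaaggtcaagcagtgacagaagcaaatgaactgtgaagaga

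Sult1d1: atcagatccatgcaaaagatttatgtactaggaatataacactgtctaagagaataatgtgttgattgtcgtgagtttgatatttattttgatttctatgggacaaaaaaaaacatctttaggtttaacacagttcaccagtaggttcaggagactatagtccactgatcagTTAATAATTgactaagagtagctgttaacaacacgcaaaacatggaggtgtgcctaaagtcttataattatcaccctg

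The windows of Ugt2b5 and Ugt2b37 were alike, with 72.6% of aligned positions identical, gaps counted as unlike, while the other pairs of these 4 had between 46.1% and 48.2%. The 27 member genes with a promoter entry had 31 windows. The HNF1 core was in 4 of these 31 (Ces5a, Sult1d1, Ugt2b37 and Ugt2b5) and in 1.40% of 32851 promoter windows. The D-box was in 4 of the 31 (Aadac, Ces1g, Sult1a1 and Ugt2b1) and in 2.06% of all. AAAGGTCA, an element of the nuclear receptor Hnf4a, was in 3 of the 31 (Sult2a8, Ugt2b37 and Ugt2b5) and in 1.34%. GCGTG, the core read by the dioxin receptor Ahr, was in 3 of the 31 (Sult1b1, Sult1d1 and Sult2b1) and in 28.2%. None of these motifs overlaps another in the printed windows, both strands were searched, and a match is only a run of letters.

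The sulfotransferases had no common direction. Of 12 genes, 1 was higher and 4 were lower in DBA/2J kidney, with a median of -0.08, and 3 were higher and 3 lower in liver, with a median of 0.09. Without loess 3 were higher and 5 lower in kidney, and 4 higher and 2 lower in liver. In brain 1 was lower, Sult2a8. The genes that did not pass had means between -0.19 and 0.22 in kidney and between -0.12 and 0.16 in liver. For comparison, 42.1% of all features passed in kidney, 22.7% in liver and 13.8% in brain with loess. The share of sulfotransferases was thus near that of all features in kidney, above it in liver and below it in brain. Shares of all features without loess were not counted.

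Sult1d1, which sulfates catecholamines and their metabolites, was lower in DBA/2J kidney by the widest ratio of all 33 genes there, 1.79-fold. Kidney arrays ran from -1.02 through -0.81 to -0.67, with a mean of -0.84 ± 0.14 (n = 6; adjusted p = 1.95e-06), below every array of the other tissues. Liver arrays ran from -0.35 through -0.27 to -0.02, with a mean of -0.22 ± 0.14 (adjusted p = 0.0388). In brain the arrays ran from -0.15 through 0.10 to 0.43, with a mean of 0.12 ± 0.22 (adjusted p = 0.394). The kidney value depended on the loess step: its spot was at the 99.0th percentile of intensity in kidney, and without loess the mean was 0.20 (adjusted p = 0.0974). With a single loess curve it was -0.71 and with unrestored intensities -0.72. The liver call was lost without liver array 1, 3, 4 or 5, with means between -0.22 and -0.19 and adjusted p between 0.0801 and 0.121, without loess (adjusted p = 0.142) and with unrestored intensities (adjusted p = 0.0573).

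Sult3a1, which sulfates amines and is known to be higher in female than male mouse liver, was lower in both excretory tissues of DBA/2J. Liver arrays ran from -1.06 through -0.65 to -0.23, with a mean of -0.59 ± 0.31 or 1.51-fold (adjusted p = 0.00185), and kidney arrays from -0.91 through -0.49 to -0.11, with a mean of -0.46 ± 0.28 (adjusted p = 0.00142). Brain arrays lay between -0.35 and 0.03, with a median of -0.08 and a mean of -0.12 ± 0.15 (adjusted p = 0.334). The arrays of all 3 tissues overlapped. The kidney mean was -1.14 without loess and -0.70 with a single loess curve. In the same liver arrays Xist, which is transcribed in females, was lower in DBA/2J (-0.58 ± 0.23), and the Y-linked Eif2s3y (0.36 ± 0.28) and Kdm5d (0.25 ± 0.19) were higher. The part of this in the liver ratios was not tested.

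Sult1c2, whose spot was among the brightest in each tissue, was higher in DBA/2J kidney and liver. Kidney arrays ran from 0.32 through 0.44 to 0.58, with a mean of 0.43 ± 0.10 (adjusted p = 0.000165). Those of liver ran from 0.06 through 0.24 to 0.35, with a mean of 0.23 ± 0.11 (adjusted p = 0.0263), and those of brain from -0.54 through -0.21 to -0.02, with a mean of -0.25 ± 0.20 (adjusted p = 0.0576). Brain overlapped with neither of the others. The liver call was lost without liver array 2, 3, 4 or 6, with means between 0.21 and 0.23 and adjusted p between 0.0523 and 0.0803. Under each other scaling the liver mean was larger and past the threshold, at 0.66 without loess, 0.58 with a single loess curve and 0.62 with unrestored intensities. Without loess the kidney mean was 1.10 and the brain mean -0.02.

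Sult1a1, the main phenol sulfotransferase, was lower in kidney (-0.36 ± 0.10, and -0.71 without loess and -0.67 with a single loess curve), and so was Sult2a8, which sulfates bile acids, in kidney (-0.31 ± 0.28) and in brain (-0.41 ± 0.32). The Sult2a8 ratios were not stable. In kidney the mean was -0.11 without loess (adjusted p = 0.507) and -0.04 with unrestored intensities (adjusted p = 0.847), against -0.51 with a single loess curve (adjusted p = 0.00797), and it missed the threshold without kidney array 1 or 6 (adjusted p of 0.0601 and 0.0543, means of -0.26 and -0.27). In brain it missed it without brain array 3 or 6 (adjusted p of 0.0514 and 0.0757, means of -0.41 and -0.37) and with unrestored intensities (-0.36, adjusted p = 0.0682). Higher in liver were Sult6b1 (0.47 ± 0.24) and Sult1b1 (0.36 ± 0.20), a sulfotransferase of phenols and thyroid hormones. Sult2b1, which sulfates cholesterol, was lower there (-0.30 ± 0.18) with a spot at the 3.02th percentile of intensity, and its adjusted p was 0.0603 without liver array 3 (mean -0.27), while the mean was -0.60 without loess and -0.56 with a single loess curve.

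Of the N-acetyltransferases, which acetylate aromatic amines and lie side by side on chromosome 8, each passed in 1 tissue. Across all features, 13.8% passed in brain, 42.1% in kidney and 22.7% in liver. Nat2 was lower in DBA/2J brain (-0.52 ± 0.35), with adjusted p = 0.101 and a mean of -0.36 when intensities were left unrestored. Nat1 was lower in kidney (-0.24 ± 0.27), from a spot at the 1.91th percentile of intensity. That call was lost without kidney array 1, 3, 4 or 6, with means between -0.25 and -0.18 and adjusted p between 0.0682 and 0.126. Under each other scaling it was larger and past the threshold, at -0.89 without loess, -0.41 with a single loess curve and -0.54 with unrestored intensities. In liver neither passed, nor had an unadjusted p under 0.05 (limma; -0.06 ± 0.44 for Nat1 and 0.06 ± 0.22 for Nat2).

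Among the carboxylesterases 1 of 6 was higher and 2 were lower in DBA/2J kidney, and 1 was higher and 3 were lower in liver. For comparison, 42.1% of all features passed in kidney, 22.7% in liver and 13.8% in brain. Ces5a, a secreted carboxylesterase known as cauxin in cat urine, was the only gene of the 33 past the threshold in all 3 tissues, and was lower in DBA/2J in each. Brain arrays ran from -0.52 through -0.34 to -0.13, with a mean of -0.34 ± 0.16 (adjusted p = 0.0150). Kidney arrays ran from -0.95 through -0.76 to -0.48, with a mean of -0.75 ± 0.18 or 1.68-fold (adjusted p = 7.80e-06). In liver they ran from -0.84 through -0.60 to -0.36, with a mean of -0.57 ± 0.18 (adjusted p = 0.000434). All 18 arrays were below 0, and the ranges of the tissues overlapped. The spot was dim in each tissue, at the 13.8th, 24.8th and 35.7th percentile of intensity. The brain call was lost without brain array 4 (-0.30, adjusted p = 0.0587) and with a single loess curve (-0.16, adjusted p = 0.196).

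Ces2f was higher in kidney (0.36 ± 0.28, and 0.90 without loess) and lower in liver (-0.42 ± 0.41). The liver value was lost without liver array 3, 4 or 5, with means between -0.36 and -0.34 and adjusted p between 0.0722 and 0.0957. Ces3a was lower in kidney (-0.21 ± 0.19) and liver (-0.23 ± 0.08). Its kidney ratio turned to 0.27 without loess, missed the threshold with a single loess curve (-0.19, adjusted p = 0.118) and with unrestored intensities (-0.16, adjusted p = 0.339), and missed the threshold without kidney array 1, 4 or 6 (means between -0.20 and -0.16, adjusted p between 0.0959 and 0.135). Its liver ratio missed it without liver array 3, 4 or 6 (means between -0.23 and -0.21, adjusted p between 0.0613 and 0.0683), without loess (-0.15, adjusted p = 0.234) and with unrestored intensities (-0.19, adjusted p = 0.0823). Ces1g was higher in liver (0.30 ± 0.11), with all 6 arrays between 0.16 and 0.41 and a mean of 0.50 without loess. It lies beside Ces1h and Ces5a on chromosome 8 with no other coding gene between them, and the ratios of these 3 neighbours in liver were 0.30, -0.09 and -0.57. Aadac, which removes acetyl groups from aromatic amides, passed in no tissue (-0.10 ± 0.17 in brain, 0.16 ± 0.13 in kidney and -0.13 ± 0.08 in liver).

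Of the 3 epoxide hydrolases, Ephx1 and Ephx2 were lower in DBA/2J liver, as were 12.0% of all features, and Ephx3 passed nowhere. Ephx1, the microsomal form that opens epoxides of drugs and polycyclic hydrocarbons, was lower in kidney by 1.60-fold. Kidney arrays ran from -1.01 through -0.62 to -0.52, with a mean of -0.68 ± 0.19 (adjusted p = 1.90e-05). The liver arrays ran from -0.78 through -0.42 to -0.18, with a mean of -0.44 ± 0.20 (adjusted p = 0.00250), and the brain arrays from -0.62 through -0.19 to 0.18, with a mean of -0.23 ± 0.32 (adjusted p = 0.161). All arrays of kidney and liver were below 0, and the 3 tissues overlapped. Its kidney ratio changed little without loess (-0.67). Ephx2, the soluble form that hydrolyses fatty acid epoxides, was lower in liver (-0.32 ± 0.16), and without loess that ratio was -0.14 (adjusted p = 0.225).

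Fmo2, a monooxygenase of amines and sulfides best known from lung, had the largest strain ratio of the 33 genes, 2.22-fold higher in DBA/2J liver. The liver arrays ran from 0.84 through 1.05 to 1.66, with a mean of 1.15 ± 0.32 (n = 6; adjusted p = 2.82e-05), above every array of brain and kidney. Brain arrays ran from 0.12 through 0.32 to 0.38, with a mean of 0.29 ± 0.10 (adjusted p = 0.0193). Kidney arrays lay on both sides of 0, from -0.42 through -0.05 to 0.18, with a mean of -0.07 ± 0.26 (adjusted p = 0.527). The brain call was lost without brain array 2, 4, 5 or 6, with means between 0.27 and 0.29 and adjusted p between 0.0542 and 0.0631.

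Both Fmo2 spots were high in liver, at 1.47 ± 0.41 for the spot of AK009753 (adjusted p = 1.50e-05) and 0.83 ± 0.26 for that of NM_018881 (adjusted p = 8.42e-05). They had opposite signs in kidney, at 0.19 ± 0.37 (adjusted p = 0.178) and -0.34 ± 0.18 (adjusted p = 0.00268). In brain they were at 0.38 ± 0.16 (adjusted p = 0.00835) and 0.19 ± 0.19 (adjusted p = 0.139). Fmo1, the neighbour of Fmo2 on chromosome 1 and the main form of mouse kidney, was higher in kidney (0.26 ± 0.18, and 0.92 without loess), but not past the threshold with unrestored intensities (0.29, adjusted p = 0.0977). In liver its mean was -0.21 ± 0.25 and did not pass. Fmo5, which oxidises ketones, was lower in liver (-0.30 ± 0.18), with both spots past the threshold (-0.27 ± 0.17 and -0.33 ± 0.24). Without loess that mean was -0.22 (adjusted p = 0.101), and without liver array 3 it was -0.28 (adjusted p = 0.0536).

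**Figure D2:**
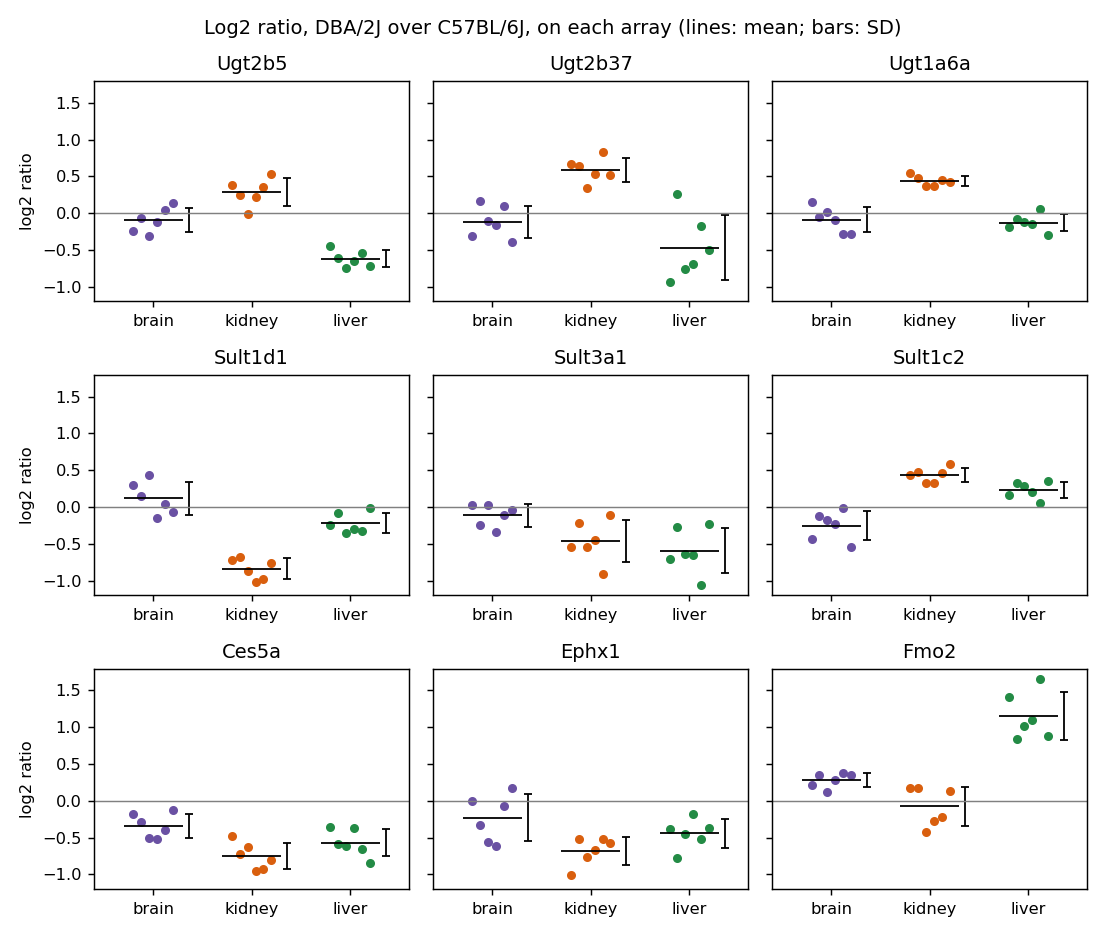
Log2 ratio of DBA/2J over C57BL/6J on each of the 6 arrays per tissue (points), with the mean (line) and SD (bar), for 9 genes. Ugt2b5 in liver (-0.75 to -0.45) and Sult1d1 in kidney (-1.02 to -0.67) lie apart from the other tissues, Fmo2 in liver (0.84 to 1.66) lies above them, and Ces5a is below 0 on all 18 arrays.

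The difference of the strain ratio between tissues was tested in a fit of all 18 arrays. It passed for 15 of 33 genes between kidney and liver (45.5%, against 20.7% of all features), 12 between brain and kidney (36.4%, against 24.9%) and 9 between brain and liver (27.3%, against 7.77%). Kidney had the higher ratio of DBA/2J over C57BL/6J in 11 of the 15 genes and liver in 4. The 3 comparisons share arrays. Without loess kidney had the higher ratio in 14 of 23 genes. Between brain and liver the count was 4 without loess and 5 with a single loess curve or unrestored intensities. The shares of all features in these settings were not counted.

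Between kidney and liver the smallest p-values belonged to Fmo2, at -1.22 ± 0.13 (kidney minus liver, SE; adjusted p = 3.98e-07), Ugt2b5, at 0.90 ± 0.10 (adjusted p = 6.68e-07), and Ugt2b37, at 1.06 ± 0.15 (adjusted p = 1.99e-05). Arrays of kidney and liver did not overlap in any of these 3 genes, though the share of all features without overlap was not counted. Among the 15 genes were 5 of the 6 glucuronosyltransferases, the exception being Ugt2a1, and all 5 had the higher ratio in kidney. With Ugt2b1 this was not so without loess, where its difference was -0.20 (adjusted p = 0.279). Between brain and kidney the first 3 were Sult1d1, at 0.95 ± 0.11 (brain minus kidney, SE; adjusted p = 1.09e-06), Sult1c2, at -0.69 ± 0.10 (adjusted p = 2.31e-05), and Ugt1a6a, at -0.53 ± 0.09 (adjusted p = 0.000228). Without loess the Sult1d1 difference turned to -0.26 (adjusted p = 0.166). Between brain and liver they were Fmo2, at -0.86 ± 0.13 (brain minus liver, SE; adjusted p = 0.000132), Ugt2b5, at 0.52 ± 0.10 (adjusted p = 0.00158), and Sult1c2, at -0.48 ± 0.10 (adjusted p = 0.00193).

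Of the 12 genes past the threshold in at least 2 tissues, 8 had a single direction (Ces3a, Ces5a, Ephx1, Fmo2, Sult1c2, Sult1d1, Sult2a8 and Sult3a1) and 4 were higher in DBA/2J kidney and lower in DBA/2J liver (Ces2f, Ugt2b1, Ugt2b37 and Ugt2b5). Liver calls of Ces2f, Ugt2b1 and Ugt2b37 were among those lost without a single array, as given above, and that of Ugt2b5 was not. Of all features 42.1% passed in kidney and 22.7% in liver, and the shares with either pattern were not counted.

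**Figure D3:**
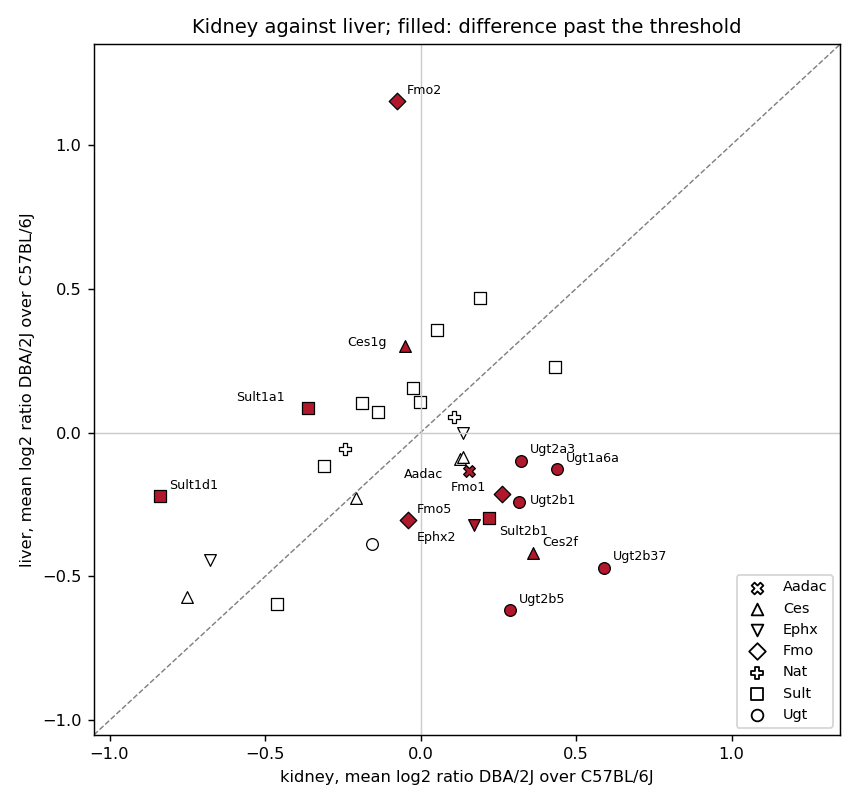
Mean log2 ratio of DBA/2J over C57BL/6J in kidney (horizontal axis) and liver (vertical axis) for the 33 genes; the shape gives the family, filled points differ between the tissues past the threshold, and the dashed line marks equal ratios. Fmo2 stands alone at the top (1.15 in liver), Sult1d1 at the left (-0.84 in kidney), and Ugt2b37 (0.59 and -0.47) and Ugt2b5 (0.29 and -0.62) lie lower right.

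The loess step mattered most in kidney. There the deposited ratios correlated with the fitted spot intensity with Pearson's r between 0.595 and 0.698 on the 6 arrays, across spots, which are not independent replicates. Among the 16 kidney calls, 3 changed sign without it (Ces3a, Sult1d1 and Ugt2b1), 12 kept sign and threshold, and Sult2a8 kept sign but missed the threshold. No brain or liver call changed sign.

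**Figure D4:**
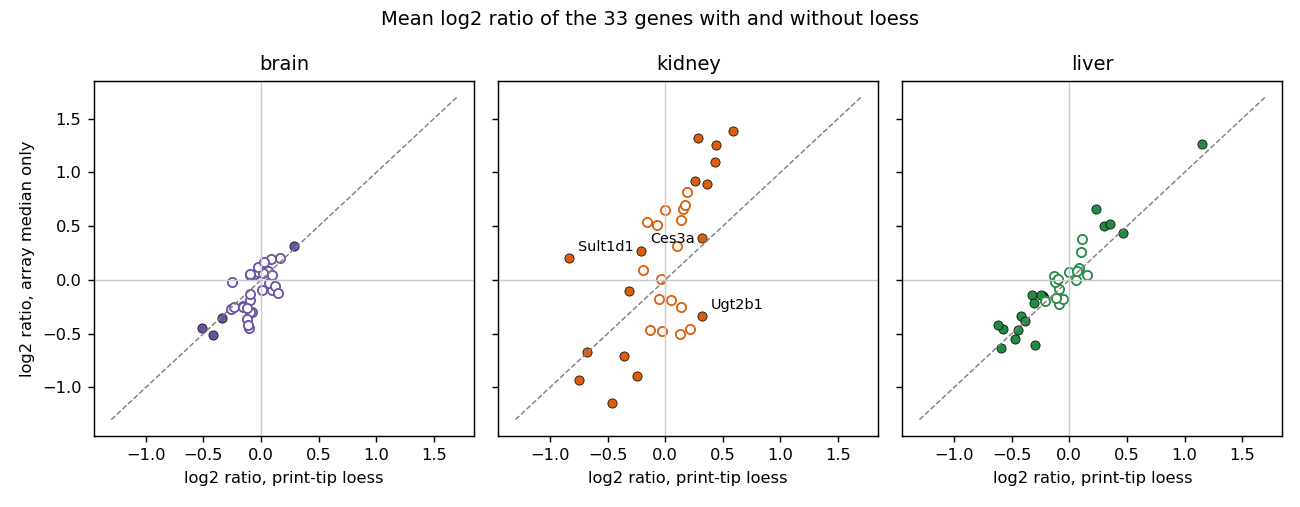
Mean log2 ratio of the 33 genes with print-tip loess (horizontal axis) against centring on the array median alone (vertical axis); filled points passed the threshold with loess, and the dashed line marks equal values. Kidney values spread widely without loess, with Sult1d1 moving from -0.84 to 0.20 and Ugt2b37 from 0.59 to 1.38, while Fmo2 in liver stays near the line (1.15 and 1.27).

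Genes that supply or follow these enzymes were taken from lists. For each list below, the share of all features past the threshold was 42.1% in kidney, 22.7% in liver and 13.8% in brain. The shares of all features without loess were not counted. Of 12 measured genes of nucleotide sugar and sulfate donors and deconjugation, 4 were higher and 1 lower in DBA/2J kidney, 2 higher and 0 lower in liver, and 1 higher and 1 lower in brain (without loess 8 higher and 4 lower in kidney). The sulfate transporter Slc26a2 was higher in kidney (0.89 ± 0.27) and brain (0.68 ± 0.33). Bpnt1, which breaks down the by-product of sulfation, was higher in kidney (0.68 ± 0.26), and Papss2, which makes the sulfate donor, was higher in kidney (0.30 ± 0.20) and liver (0.21 ± 0.11). The lysosomal glucuronidase Gusb was lower in kidney (-0.35 ± 0.18).

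Among 21 glutathione S-transferases, the other large conjugating family, 5 were higher and 5 lower in kidney. In liver 6 were higher and 1 lower, and in brain 2 were higher and 1 lower. All features stood at 21.0% higher and 21.0% lower in kidney, 10.7% and 12.0% in liver, and 7.45% and 6.32% in brain. In kidney Gsta2 (-1.48 ± 0.22) and Gsta1 (-0.98 ± 0.31) were lower and Mgst3 higher (0.96 ± 0.19). Mgst3 was also higher in liver (0.83 ± 0.15) and brain (0.30 ± 0.26), and Gstt2 in liver (0.82 ± 0.37) and kidney (0.24 ± 0.11). Without loess 13 of the 21 were higher and 4 lower in kidney.

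Of 12 genes of methyl, acyl and amino acid conjugation, 5 were higher and 3 lower in kidney, 1 higher and 5 lower in liver, and 1 higher and 1 lower in brain. Acsm1 and Acsm3, which activate medium-chain acids for glycine conjugation, were 1.37 ± 0.26 and -1.29 ± 0.20 in kidney, and Acsm3 was -0.45 ± 0.20 in liver. Baat, which conjugates bile acids, was lower in liver (-0.71 ± 0.07) and higher in kidney (0.17 ± 0.11). The thiopurine methyltransferase Tpmt was higher in liver (0.68 ± 0.31) and kidney (0.40 ± 0.33) and lower in brain (-0.29 ± 0.12). Without loess 9 were higher and 1 lower in kidney.

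Other hydrolases and reductases had 4 of 14 higher and 3 lower in kidney, 1 higher and 2 lower in liver and 0 higher and 1 lower in brain, and without loess 8 higher and 3 lower in kidney. Examples in kidney were the monoglyceride lipase Mgll (0.75 ± 0.36) and the reductase Cyb5r3 (0.72 ± 0.27), and in liver Akr1c6 (0.42 ± 0.10). Of 21 transporters 5 were higher and 5 lower in kidney, 1 higher and 5 lower in liver and 2 higher and 0 lower in brain. Against this, 42.1% of all features passed in kidney, 22.7% in liver and 13.8% in brain. Slc22a7, an organic anion carrier, was lower in kidney (-0.84 ± 0.27, but 0.07 without loess) and liver (-0.28 ± 0.10), Slco1a4 was lower in liver (-0.61 ± 0.19), and Abcc2, which exports conjugates, was higher in brain (0.64 ± 0.22). Without loess 12 transporters were higher and 2 lower in kidney, and 2 higher and 2 lower in liver.

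Of 23 transcription factors of these pathways, 7 were higher and 5 lower in kidney, 5 higher and 5 lower in liver and 0 higher and 1 lower in brain. In kidney these were 9 and 5 without loess, 4 and 2 with a single loess curve and 4 and 3 with unrestored intensities, and in liver 4 and 2 without loess. Dbp, a clock-driven activator that binds the D-box, was higher in kidney (0.73 ± 0.31) and liver (0.98 ± 0.45). The bile acid repressor Nr0b2 was higher in liver (0.72 ± 0.26), Nr5a2 was lower in kidney (-0.64 ± 0.21) and Ahrr, the repressor of the dioxin receptor, was lower in brain (-0.51 ± 0.34), kidney (-0.22 ± 0.17) and liver (-0.34 ± 0.14). Of all features 42.1% passed in kidney, 22.7% in liver and 13.8% in brain.

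Some markers of cell types and sex passed the threshold in the same comparisons. The share of all features that passed was 42.1% in kidney, 22.7% in liver and 13.8% in brain. In kidney 1 of 9 tubule markers was higher and 4 were lower, between -1.10 (Slc34a1) and 0.30 (Slc5a2), with a median of -0.19 that was 0.48 without loess. Of 9 hepatocyte markers in liver, 0 were higher and 2 lower, Ahsg (-0.52) and Cps1 (-0.48), with a median of 0.04. Of 2 measured blood markers, haemoglobin Hba-a1 was lower in brain (-0.55) and kidney (-0.68, but 0.53 without loess). The other passed in neither tissue (0.03 in brain and -0.10 in kidney). Markers of neurons and glia had 2 of 9 higher and 1 lower in brain. Pancreas markers had 2 of 4 higher and 2 lower in brain, 1 higher and 1 lower in kidney, and 0 past the threshold in liver. Adipose markers had 1 of 2 higher in kidney and 1 lower in liver. The 2 choroid plexus markers passed in no tissue. Of the sex-linked genes, Eif2s3y (-0.30 ± 0.06, but 0.53 without loess and 0.17 with unrestored intensities) and Uty (-0.24 ± 0.20) were lower in kidney, and in brain 0 of 4 passed, 1 of them with an unadjusted p under 0.05 (limma). The part of these in the ratios above was not tested. In whole tissue, fewer cells of a type and less RNA per cell cannot be told apart. Glo1, a known copy number difference between these strains, had a ratio above 0 in each tissue (0.65 ± 0.15, 0.78 ± 0.34 and 0.94 ± 0.14 in brain, kidney and liver).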

How the data were processed

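The deposited values are log2 ratios per spot. Per the labels, Spot was used for quantification and limma for print-tip lowess. The deposited log2 ratios did not look normalised: all values (100.0%, tolerance 1e-12) were the log2 of 1 whole number over another, with array medians between -1.65 and 0.16. They were treated as ratios of raw intensities. The whole numbers were recovered by continued fractions up to 65535, their common factor was estimated from the other arrays (assumed SD 0.4), and ratios were normalised by print-tip loess in limma 3.58.1 with R 4.3.3 (span 0.3, 4 iterations, 48 blocks of 480 spots). Of 23040 spots, 1275 were 0 on all arrays and left out. Spots of 1 symbol were averaged to 20218 features. The annotated symbols were updated through RefSeq GRCm38.p6 (15964 of 16642 spots with 1 symbol), while 134 spots had several symbols and 4989 had none.

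Means of 6 arrays were tested against 0 and tissue differences as contrasts of 18 arrays with limma, with Benjamini-Hochberg adjustment and a threshold of 0.05. Errors are SDs, or SEs for differences. The steps were tested on simulated data. Mean correlation of arrays within a tissue was 0.382, 0.648 and 0.475 in brain, kidney and liver, and the number of arrays limits the precision. Alternatives were no loess, 1 loess curve, unrestored intensities, no dim or saturated spots, single spots, a 1.5-fold limit, a replicate block and each array left out.

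The members, gene lists and tests were chosen with earlier results of these data known. Array values are given for members at least 1.5-fold in a tissue and for the 3 smallest p-values per pair of tissues. Up to 8 others per tissue were named by size, and the rest (such as Ugt2b1, Nat1, Ces1g, Fmo1 and Fmo5) and the printed promoters were chosen after their values were seen. From each list, up to 3 genes per tissue past the threshold were eligible by size. Promoter windows came from RefSeq and were aligned with Biopython 1.88.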

Additional observations from a re-analysis of the deposited data

Results flagged for a closer look

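On 5 of 99 sets of 6 arrays, 1 array lay far from the other 5, and chance gives about 1 in 20 such sets. These were Aadac on kidney array 3 (-0.10), Ces2g on liver array 4 (-0.39), Ephx3 on brain array 6 (-0.21), Sult2a8 on kidney array 5 (0.21) and Sult6b1 on kidney array 3 (-0.55).

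The strain ratio differed between tissues in 36 tests (limma, contrasts of 18 arrays). For brain minus kidney the log2 differences were -0.25 for Aadac, 0.41 for Ces5a, 0.45 for Ephx1, -0.35 for Fmo1, 0.36 for Fmo2 and -0.62 for Nat2. They were -0.69 for Sult1c2, 0.95 for Sult1d1, -0.53 for Ugt1a6a, -0.30 for Ugt2a3, -0.71 for Ugt2b37 and -0.38 for Ugt2b5. The ranges of the arrays did not overlap for Sult1c2, Sult1d1, Ugt1a6a and Ugt2b37.

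For brain minus liver the differences were -0.56 for Ces1g, 0.58 for Ces2f, -0.86 for Fmo2, 0.37 for Fmo5 and -0.57 for Nat2, and -0.48 for Sult1c2, 0.48 for Sult3a1, -0.50 for Sult6b1 and 0.52 for Ugt2b5. The ranges did not overlap for Fmo2, Sult1c2 and Ugt2b5.

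For kidney minus liver they were 0.29 for Aadac, -0.35 for Ces1g, 0.78 for Ces2f, 0.49 for Ephx2, 0.48 for Fmo1, -1.22 for Fmo2 and 0.26 for Fmo5. They were -0.45 for Sult1a1, -0.62 for Sult1d1, 0.52 for Sult2b1, 0.57 for Ugt1a6a, 0.42 for Ugt2a3, 0.56 for Ugt2b1, 1.06 for Ugt2b37 and 0.90 for Ugt2b5. The ranges did not overlap for Ces1g, Ephx2, Fmo2, Sult1a1, Sult1d1, Ugt1a6a, Ugt2a3, Ugt2b37 and Ugt2b5. For no pair of tissues was the share of all features without overlap counted.

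Without a single array, 10 of the 36 missed the threshold. Between brain and kidney these were Aadac (9 arrays, adjusted p up to 0.122), Fmo1 (kidney array 2, adjusted p = 0.0517), Fmo2 (8 arrays, up to 0.116) and Ugt2a3 (8 arrays, up to 0.0973). Between brain and liver they were Ces2f (brain array 3 and liver arrays 3, 4 and 5, up to 0.0645), Sult3a1 (7 arrays, up to 0.0813) and Sult6b1 (8 arrays, up to 0.0714). Between kidney and liver they were Aadac (6 arrays, up to 0.0701), Ces1g (6 arrays, up to 0.0701) and Fmo5 (9 arrays, up to 0.113). These adjusted p-values are from limma. Other scalings ended 11 of the 36 calls (a single loess curve) and 8 (unrestored intensities), and leaving out loess ended 8 and turned 4.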

How the results depend on the processing

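Without loess, genes past the threshold numbered 7 in brain and 27 in kidney, and tissue differences 20 (brain and kidney), 4 (brain and liver) and 23 (kidney and liver). With a single loess curve, and with unrestored intensities, 5 differed between brain and liver. At 1.5-fold or more 0 genes remained in brain, 4 in kidney and 3 in liver, and 4, 1 and 5 tissue differences. Leaving out 1 array gave 2 to 5 genes in brain, 13 to 20 in kidney and 10 to 17 in liver. It gave 9 to 12 between brain and kidney, 6 to 12 between brain and liver and 12 to 17 between kidney and liver. Shares of all features were not counted under the other scalings, without an array, or for tissue differences at 1.5-fold. Among the 38 tissue calls and 36 tissue differences past the threshold, signs changed without loess and under no other setting run: Ces3a (0.27), Sult1d1 (0.20) and Ugt2b1 (-0.34) in kidney, Fmo2 (-0.20) and Sult1d1 (-0.26) between brain and kidney, and Sult1d1 (0.37) and Ugt2b1 (-0.20) between kidney and liver. The cause was not tested.

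Of 38 tissue calls, 34 held with a single loess curve, 30 with unrestored intensities and 29 without loess, and 14 were lost without some array. Of the 36 tissue differences 25, 28 and 24 held under these settings. Among those lost, Ces1g (-0.15, adjusted p = 0.473) and Ephx2 (0.27, adjusted p = 0.136) between kidney and liver fell short with a single loess curve, and Sult2b1 there (0.15, adjusted p = 0.383) without loess. Replicate numbers were not taken to pair the arrays. As deviations from the tissue mean, same-numbered arrays correlated between -0.232 and 0.162. An array correlated best with its own number for replicates 1, 3 and 5 of kidney and liver. This also held for 4 and 6 of brain and kidney and for 4 of brain and liver, but not for the others. With a replicate block 12, 9 and 13 genes differed between brain and kidney, brain and liver, and kidney and liver, against 12, 9 and 15. The block lost Aadac (adjusted p = 0.0611) and Fmo2 (0.0516) and gained Sult2b1 (0.0254) and Sult3a1 (0.0377) between brain and kidney, and lost Ces1g (0.0551) and Fmo5 (0.0607) between kidney and liver (limma). Dim spots limit the kidney ratios of Ugt2b1 and Nat1.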
